A study of Mus musculus with 6 samples.

Results

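The 8 genes described here encode the main calcium pumps and calcium release channels of the endoplasmic reticulum (ER), with a pair of proteins that act on them: *Atp2a2* (SERCA2), *Atp2a3* (SERCA3), *Ryr2*, *Itpr1*, *Itpr2*, *Itpr3*, *Fkbp1b* (FKBP12.6) and *Srl* (sarcalumenin). They are 8 of the 16640 genes in the count tables, and all 8 passed the filter on low counts. They were chosen from measured values of these same libraries, namely earlier contrasts between the conditions and between replicate 3 and the other replicates. Their differences are therefore given as a description, with standard errors and no p-value, and counts of calls among them support nothing.

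The libraries came from MIN6 cells, a mouse pancreatic β-cell line derived from an insulinoma. The *Thada*-activated line carried dCas9-VP64 and, with an sgRNA aimed at the *Thada* promoter, MS2-P65-HSF1, from lentiviruses selected with puromycin and G418. The control line carried dCas9 and a non-targeting sgRNA from lentiviruses, and its activators and selection are not stated. RNA was sequenced on the BGISEQ-500 platform in 3 libraries per condition, numbered 1 to 3, and the labels do not say whether these came from separate cultures. The study's reporting summary puts all in vitro work at 3 or more independent experiments and does not name these libraries there. Library totals for numbers 1, 2 and 3 were 17272834, 17166511 and 17689611 counts in control, against 17727004, 17385036 and 17224631 counts in activated cells. Levels are given in CPM, counts scaled to a common library total, and a single count was worth from 0.0564 to 0.0583 CPM. The floor was set at 3 counts per library, or 0.169 to 0.175 CPM. The p-values below measure only the spread between libraries, which may be technical. As in any bulk RNA sample, fewer cells of a type and less RNA per cell cannot be told apart.

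SERCA pumps use ATP to carry calcium from the cytosol into the ER lumen, while IP3 receptors and ryanodine receptors let it back out on a signal. In β cells this store shapes the cytosolic calcium that drives insulin release and supplies the calcium that chaperones need to fold proinsulin. The calstabin FKBP12.6 binds ryanodine receptors, and sarcalumenin is a calcium-binding glycoprotein of the sarcoplasmic reticulum lumen that is best known from striated muscle, where it supports SERCA2.

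*Thada*, the target of the activator, served as the check of the labels. Its level was 27.7, 29.0 and 17 CPM in control replicates 1, 2 and 3 and 57.4, 56.2 and 50.2 CPM in *Thada*-activated replicates 1, 2 and 3. Every activated library was above every control library, with means of 54.6 ± 3.89 and 24.5 ± 6.60 CPM (SD, n = 3). An exact two-sided permutation test of 3 against 3 libraries gave p = 0.1, the smallest that this design allows. The log2 difference was 1.13 (SE 0.22) without a block in edgeR, where the adjusted p was 1.00, and 1.15 (SE 0.10) with the replicate number as a block, where the adjusted p was 0.00041. Within replicate numbers 1, 2 and 3 the log2 difference of *Thada* was 1.03, 0.96 and 1.51. The β-cell label was checked as well: 8 of 8 β-cell markers were in the tables, and 7 were over 1 CPM in all 6 libraries. The other, *Slc2a2*, did not pass the filter on low counts. The 8 markers summed to between 97353 and 129312 CPM, with *Ins2* the most abundant at 5.65% to 10.2% of a library's counts.

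Replicate 3 of both conditions stood apart from replicates 1 and 2 over the whole table. In edgeR, with the condition in the model, 3893 of 12516 tested genes (31.1%) were called between replicate 3 and the others at an adjusted p under 0.05 and a fold change over 1.5. The 8 genes are therefore given per library and within replicate numbers as well as pooled. Between the conditions, edgeR called 0 of 12516 genes without a block, with 101 genes at an unadjusted p under 0.05, while DESeq2 called 5 of 16610 and edgeR with the replicate block called 19. Of the 8 genes, 0 were called without a block (0% of all tested genes). *Srl* alone was called with the block (0.152% of all tested genes) and by DESeq2 (0.0301%). Its call ended in the blocked fit without pair 3 and with replicates 1 and 2 only, where its fold was 1.48. For replicate 3, 2 of the 8 were called lower, *Ryr2* and *Itpr3* (15.4% of all tested genes), and 0 were called higher (15.7%). The call of *Itpr3* ended with limma on log2(FPKM + 1), where its log2 difference was -0.55. *Itpr2* was called higher without control replicate 3, at a log2 difference of 0.85, and was at 0.08 without activated replicate 3. Since these contrasts chose the genes, nothing is read from these counts.

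Per unit of length, the pumps were far more abundant than the channels. Mean FPKM (reads per length and library size) over the 6 libraries was 426 for *Atp2a2*, 143 for *Atp2a3*, 35.5 for *Fkbp1b*, 11.0 for *Srl*, 4.95 for *Itpr3*, 2.37 for *Ryr2*, 2.02 for *Itpr1* and 0.438 for *Itpr2*. Of the genes in the tables, 141 had a higher mean FPKM than *Atp2a2*, and 12114 had a higher one than *Itpr2*. Neighbours in this order overlapped in their ranges over the 6 libraries in 2 places. *Itpr3* and *Ryr2* overlapped as ranges, although *Itpr3* was higher within 6 of 6 libraries, and *Ryr2* was above *Itpr1* in 4 of 6 libraries, the exceptions being the replicate 3 libraries. Summed pump FPKM was between 52.8 and 69.7 times the summed FPKM of all IP3 and ryanodine receptors in a library.

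**Figure D1:**
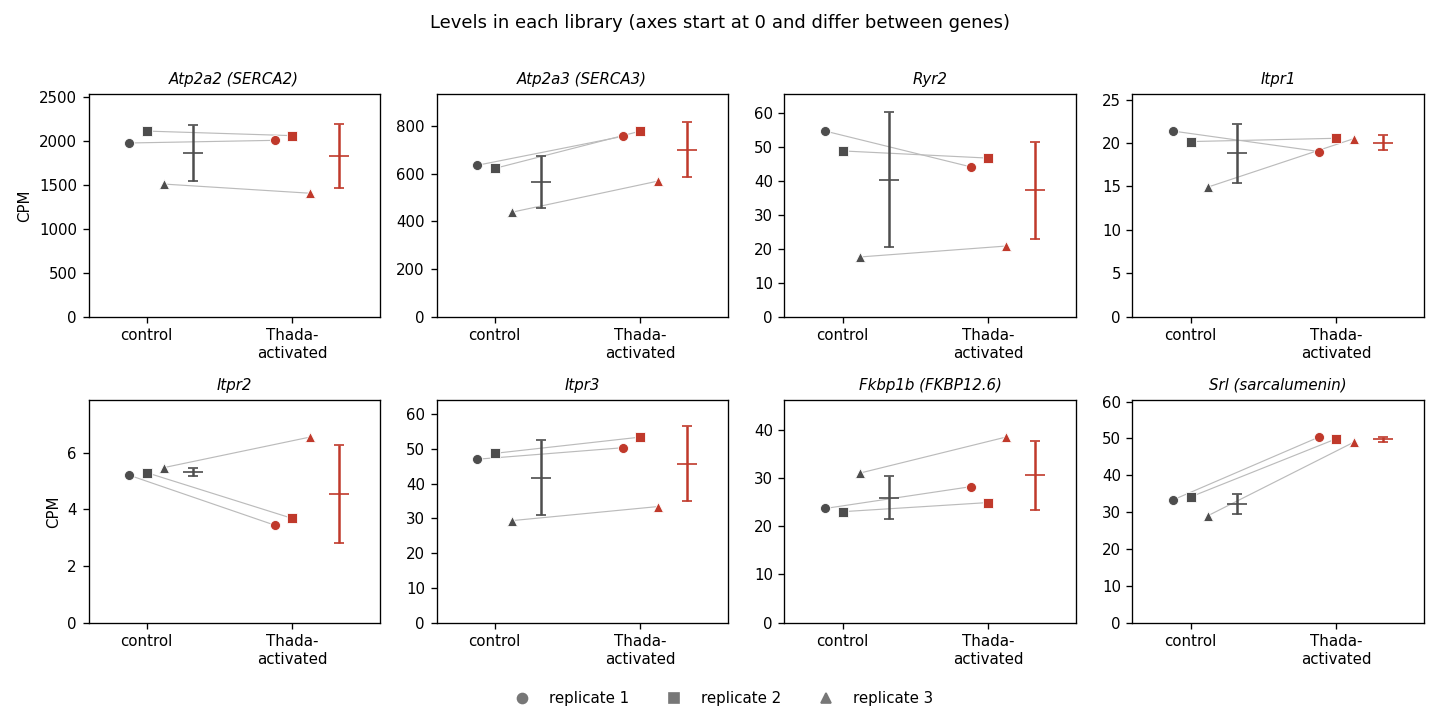
Level of each of the 8 genes in CPM (vertical axes, which start at 0 and differ between genes) in control and *Thada*-activated libraries, with the symbol giving the replicate number, grey lines joining libraries of the same number, and bars giving mean and SD (n = 3). The activated points of *Srl*, from 49.0 to 50.4 CPM, lie above all its control points, and the replicate 3 triangles of *Ryr2*, at 17.5 and 20.7 CPM, lie below its other points.

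*Atp2a2* encodes SERCA2, the pump found in nearly all cells. Its level was 1972, 2107 and 1505 CPM in control replicates 1, 2 and 3 and 2002, 2055 and 1401 CPM in the *Thada*-activated ones. The conditions overlapped, and the replicate 3 libraries were the lowest of each condition. Between conditions the means were 1861 ± 316 and 1819 ± 363 CPM (SD, n = 3), a log2 difference of -0.05 (SE 0.22). Within replicate numbers 1, 2 and 3 the log2 difference of *Atp2a2* was 0.00, -0.03 and -0.15. The 95% counting intervals were -0.02 to 0.02, -0.06 to -0.01 and -0.18 to -0.13 in turn. Replicate 3 was lower than replicates 1 and 2 by a log2 difference of -0.49 (SE 0.06), with -0.42 in control and -0.56 in activated libraries.

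*Atp2a3* encodes SERCA3, a pump of lower calcium affinity that β cells also make. Its level was 635, 622 and 438 CPM in control replicates 1, 2 and 3, and 756, 778 and 568 CPM in activated replicates 1, 2 and 3. Within each number the activated library was the higher, but activated replicate 3 lay below control replicates 1 and 2, so the conditions overlapped. The log2 difference between conditions was 0.29, with an SE of 0.21 without a block and of 0.06 with the replicate block, where it was again 0.29. Its values within replicate numbers 1, 2 and 3 were 0.23, 0.33 and 0.32, each with a counting interval above 0. Replicate 3 differed from replicates 1 and 2 by a log2 of -0.48 (SE 0.05), close to the value of *Atp2a2*.

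The shares of the pump isoforms did not overlap between conditions. This contrast chose both genes, so nothing is read from that. How often shares of other genes part in this way was not computed. *Atp2a3* made up 24.0%, 22.4% and 22.2% of summed pump FPKM in control replicates 1, 2 and 3 and 27.0%, 27.0% and 28.4% in activated replicates 1, 2 and 3. The activated libraries all lay above the control libraries, with means of 27.5% ± 0.831 and 22.9% ± 0.955 (SD, n = 3). The replicate 3 libraries held the lowest share of control and the highest of the activated libraries. As a share of counts, the nearest libraries were control replicate 1, at 24.4% (Wilson 95% interval 24.0% to 24.8%), and activated replicate 1, at 27.4% (27.0% to 27.8%). These intervals cover counting error only, not the spread between libraries. SERCA2 FPKM was 3.17, 3.46 and 3.50 times SERCA3 FPKM in control libraries and 2.71, 2.70 and 2.52 times in activated libraries. Summed pump FPKM was 600, 630 and 448 in control and 635, 652 and 450 in activated libraries, so the sum overlapped between conditions and was lowest in replicate 3. *Atp2a1*, the pump of fast skeletal muscle, had 1 count in control replicate 3 and 0 in the other 5 libraries, which is under the floor and was not detectable at this depth.

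**Figure D2:**
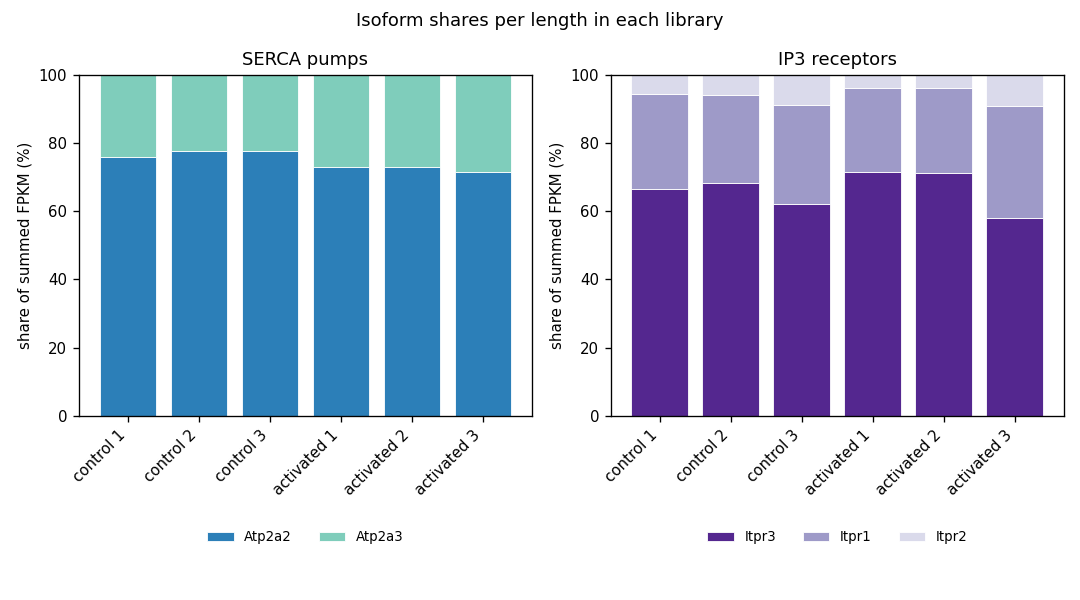
Share of summed FPKM (vertical axes, percent) taken by each SERCA pump isoform and each IP3 receptor isoform in each of the 6 libraries, as stacked bars. *Atp2a3* took 22.2% to 24.0% of pump FPKM in control and 27.0% to 28.4% in activated libraries, and *Itpr2* took its largest shares of IP3 receptor FPKM in the replicate 3 libraries, 8.80% and 9.23%.

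*Ryr2* encodes the ryanodine receptor of heart and brain, which opens in response to cytosolic calcium. Its level was 54.5, 48.7 and 17.5 CPM in control replicates 1, 2 and 3 and 44.0, 46.6 and 20.7 CPM in activated replicates 1, 2 and 3. The replicate 3 libraries were far below the other 4, and the conditions overlapped. Between conditions the log2 difference was -0.13 (SE 0.50), or -0.09 (SE 0.09) with the replicate block. For replicate 3 against replicates 1 and 2 it was -1.35 (SE 0.10), the lowest of the 8 genes, with -1.54 in control and -1.16 in activated libraries. Within replicate numbers 1, 2 and 3 the conditions differed by -0.33, -0.06 and 0.19, and the counting interval lay apart from 0 in replicate 1 alone (-0.47 to -0.19).

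Nearly all ryanodine receptor FPKM was from *Ryr2*, between 98.4% and 100% in each library. *Ryr3* had 7, 4 and 0 counts in control and 2, 8 and 0 counts in activated replicates 1, 2 and 3. *Ryr1*, the skeletal muscle isoform, had 2, 0 and 0 counts in control and 0, 0 and 4 counts in activated replicates 1, 2 and 3. *Ryr2* took 99.1% of the 951 ryanodine receptor counts in control replicate 1 (Wilson 95% interval 98.2% to 99.5%) and 98.9% of the 361 counts in activated replicate 3 (97.2% to 99.6%). As a share of all IP3 and ryanodine receptor FPKM, *Ryr2* was 26.6% on average in replicates 1 and 2 and 16.5% in replicate 3.

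The study measured *Ryr2* by RT-PCR as well, and its primers are shown because they mark which stretch of the long transcript that assay read. By GENCODE M21 exons the product is 78 bases long in a transcript of 16814 bases and 105 exons, at chr13:11851204-11853182 on the minus strand (GRCm38). The forward primer lies in exon 11, and the reverse primer crosses from exon 11 into exon 12, where capitals mark its 11 bases.
Ryr2 forward: attatgaaggtggtgccgtatca
Ryr2 reverse: TTCCACTCCACgcgactctta

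*Itpr3* encodes the IP3 receptor of lowest IP3 affinity. It had 47.0, 48.7 and 29.3 CPM in control replicates 1, 2 and 3 and 50.3, 53.4 and 33.4 CPM in activated replicates 1, 2 and 3. The activated library was the higher in every number by a narrow margin, and both replicate 3 libraries lay below the other 4. The log2 difference between conditions was 0.11 (SE 0.27), and within numbers 1, 2 and 3 it was 0.08, 0.13 and 0.14, with counting intervals that held 0 in all 3. The log2 difference of replicate 3 was -0.68 (SE 0.07), with -0.69 in control and -0.66 in activated libraries.

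*Itpr1* encodes the IP3 receptor that predominates in neurons. Its level was 21.4, 20.2 and 14.9 CPM in control replicates 1, 2 and 3, against 19.0, 20.5 and 20.5 CPM in activated replicates 1, 2 and 3. Control replicate 3 was low on its own, while activated replicate 3 was level with activated replicate 2. The log2 difference between conditions was 0.07 (SE 0.16), and within numbers 1, 2 and 3 it was -0.19, 0.03 and 0.41, the last with a counting interval from 0.17 to 0.64. Replicate 3 differed by -0.46 from replicates 1 and 2 in control and by 0.02 in activated libraries, so the pooled value of -0.21 (SE 0.11) rested on control replicate 3; without that library it was 0.02.

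*Itpr2* encodes the IP3 receptor of highest IP3 affinity and was the rarest of the 8 genes. It had 90, 91 and 97 counts in control replicates 1, 2 and 3 and 61, 64 and 113 counts in activated replicates 1, 2 and 3, which is 5.21, 5.30 and 5.48 CPM against 3.44, 3.68 and 6.56 CPM. Control libraries were level, while activated replicates 1 and 2 were the lowest of the 6 libraries and activated replicate 3 the highest. The log2 difference between conditions was -0.25 (SE 0.29). Within replicate 1 it was -0.62 (counting interval -1.11 to -0.13), within replicate 2 it was -0.53 (-1.01 to -0.05) and within replicate 3 it was 0.21 (-0.20 to 0.61). Replicate 3 was higher than replicates 1 and 2 by a log2 difference of 0.46 (SE 0.18), made up of 0.07 in control and 0.85 in activated libraries.

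The IP3 receptor shares followed the replicate number more than the condition. *Itpr3* took 66.6%, 68.2% and 62.2% of summed IP3 receptor FPKM in control replicates 1, 2 and 3 and 71.4%, 71.1% and 58.0% in activated replicates 1, 2 and 3. Averaged over conditions, its share was 69.3% in replicates 1 and 2 and 60.1% in replicate 3, that of *Itpr1* was 25.8% and 30.9%, and that of *Itpr2* was 4.80% and 9.02%. Control and activated means overlapped within their spread for *Itpr3* (65.7% ± 3.13 and 66.9% ± 7.67), for *Itpr1* (27.5% ± 1.61 and 27.5% ± 4.55) and for *Itpr2* (6.79% ± 1.75 and 5.63% ± 3.12; SD, n = 3). Within replicates 1 and 2, *Itpr2* took 5.63% and 5.93% of this FPKM in control and 3.88% and 3.77% in activated libraries. As a share of counts, *Itpr2* was 7.08% in control replicate 1 (Wilson 95% interval 5.80% to 8.62%) and 4.73% in activated replicate 1 (3.70% to 6.03%). Those intervals overlapped, which does not test the difference. The counting interval of the *Itpr2* log2 difference within replicate 1, given above, was -1.11 to -0.13. Summed IP3 receptor FPKM was 7.99, 8.09 and 5.34 in control and 7.98, 8.49 and 6.50 in activated libraries, between 2.37 and 5.12 times that of the ryanodine receptors.

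*Fkbp1b* encodes FKBP12.6, the calstabin that binds RYR2 most tightly. Its level was 23.7, 23.0 and 31.0 CPM in control replicates 1, 2 and 3 and 28.2, 24.9 and 38.5 CPM in activated replicates 1, 2 and 3. The activated library was the higher in each number, and both replicate 3 libraries were above the other 4, the reverse of *Ryr2*. Between conditions the log2 difference was 0.21 (SE 0.21), with the same value and an SE of 0.08 in the blocked fit. It was 0.23, 0.12 and 0.26 within numbers 1, 2 and 3, and the counting interval held 0 in replicate 2. Replicate 3 was higher by a log2 difference of 0.47 (SE 0.08), with 0.42 in control and 0.51 in activated libraries.

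Per length, *Fkbp1b* stood at 8.84, 9.76 and 37.0 times *Ryr2* in control replicates 1, 2 and 3 and at 13.0, 11.0 and 38.1 times in activated replicates 1, 2 and 3. This ratio was thus highest in the replicate 3 libraries, where the numerator was high and the denominator low. The other calstabin gene, *Fkbp1a* (FKBP12), had 158, 159 and 157 FPKM in control and 170, 165 and 169 FPKM in activated libraries. It was between 3.55 and 5.45 times as abundant as *Fkbp1b*. Its replicate 3 libraries did not stand apart (log2 difference 0.01, SE 0.05), and *Fkbp1b* made up 16.1% of calstabin FPKM in replicates 1 and 2 and 21.2% in replicate 3.

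*Srl*, the gene of sarcalumenin, was the member whose conditions did not overlap. It had 33.3, 34.1 and 29.1 CPM in control replicates 1, 2 and 3 and 50.4, 49.9 and 49.0 CPM in activated replicates 1, 2 and 3, which is 9.02, 9.40 and 7.39 FPKM against 13.8, 13.6 and 12.7 FPKM. The activated libraries were nearly level, at 49.8 ± 0.702 CPM against 32.2 ± 2.73 CPM in control (SD, n = 3). The log2 difference between conditions was 0.61 (SE 0.10), a fold of 1.52, and with the replicate block it was 0.61 (SE 0.07). Within numbers 1, 2 and 3 it was 0.58, 0.55 and 0.70, with counting intervals whose lower ends were 0.42, 0.40 and 0.54. Replicate 3 differed by -0.13 (SE 0.07), with -0.20 in control and -0.06 in activated libraries, and overlapped the other libraries. Over all tested genes, 5.43% had conditions that did not overlap in CPM, and 1 of the 8 genes did, from which nothing is read.

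Since sarcalumenin is known from muscle, markers of other cells are set beside it. Of 12 striated muscle markers, 10 were analysed here, and their summed level was 3.30, 2.85 and 4.81 CPM in control and 2.76, 2.42 and 4.35 CPM in activated replicates 1, 2 and 3. *Tnnc1* was the most abundant of them, and *Actn2*, *Des* and *Casq2* were at the floor in every library. Between conditions *Tnnc1* was at a log2 difference of -0.52 (SE 0.73) and *Myh6* at 0.21 (SE 0.42), and the part of muscle cells in the difference of *Srl* was not tested. The 4 markers of smooth muscle and fibroblasts summed to 1.62, 1.34 and 3.50 CPM in control and 1.13, 2.24 and 4.06 CPM in activated libraries, led by *Col1a1*, with *Acta2* at the floor. *Krt19*, the 1 of 4 acinar and duct markers analysed here, had 0.521, 0.524 and 0.339 CPM in control and 2.37, 1.5 and 1.05 CPM in activated libraries. Its log2 difference was 1.79 (SE 0.42), higher in the activated libraries as was *Srl*, and its part in the difference of *Srl* was not tested. The 4 markers of other islet cells, led by *Sst* and with *Ghrl* at the floor, summed to 196, 166 and 109 CPM in control and 184, 173 and 117 CPM in activated libraries. *Pecam1*, the 1 of 2 blood and endothelium markers analysed here, was at 0.347, 0.350 and 1.24 CPM in control and 0.338, 0.460 and 1.10 CPM in activated libraries. For replicate 3, the β-cell markers and the markers of other islet cells went both ways within their lists. Among β-cell markers edgeR called *Ins1* higher (log2 difference 0.82) and *Pdx1* (-1.03) and *Mafa* (-0.61) lower, and among other islet cells *Ppy* higher (0.70) and *Sst* lower (-1.14). Of the tested striated muscle markers, *Tnnc1* was called higher (1.62), with *Myh7* at 0.58 (SE 0.36) and *Myh6* at -0.04 (SE 0.41). *Col1a1* was called higher (1.28) and *Krt19* lower (-0.83), each the 1 marker tested in its list. The sums of striated muscle and of smooth muscle and fibroblast markers, and *Pecam1*, were higher in both replicate 3 libraries than in the others. The sum of other islet cells was lower in both. The part of these cells in the replicate 3 values of the 8 genes was not tested.

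**Figure D3:**
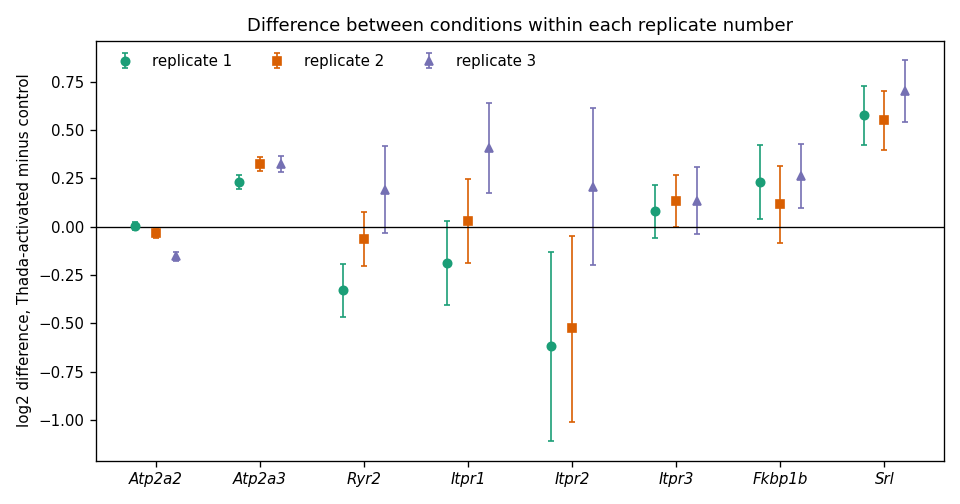
Log2 difference in CPM, *Thada*-activated minus control, within replicate numbers 1, 2 and 3 (vertical axis; horizontal axis, the 8 genes), with TMM library sizes and exact 95% intervals that cover counting error only. The points of *Atp2a3* and *Srl* lie above 0 in all 3 numbers with intervals that leave out 0, and those of *Itpr2* lie at -0.62, -0.53 and 0.21.

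Set side by side, 4 of the 8 genes were higher in the activated library of all 3 numbers, *Atp2a3*, *Itpr3*, *Fkbp1b* and *Srl*, and 0 were lower in all 3. Over all tested genes, 33.0% had 1 direction in the 3 numbers. Replicate 3 lay outside the range of replicates 1 and 2 in CPM for 6 of the 8, all but *Itpr1* and *Srl*, beside 72.1% of all tested genes. *Ryr2* and *Itpr2* were lower in activated replicates 1 and 2 and higher in activated replicate 3, each against the control library of its number. Numbers 1 and 2 went against number 3, in either orientation, in 25.3% of all tested genes. The contrasts behind these counts chose the genes, and nothing is read from them.

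As a description over the 6 libraries, which share the split of replicate 3 from the others, log2 CPM of *Ryr2* and *Itpr3* had a Pearson r of 0.955, that of *Atp2a2* and *Fkbp1b* an r of -0.916 and that of *Ryr2* and *Fkbp1b* an r of -0.854. *Srl* and *Atp2a2* had an r of 0.09. Among 9737 other tested genes with a mean of at least 10 CPM (9738 for *Itpr2*), the genes most like *Srl* were *Gtf3a* (r = 0.987), *Thada* (0.984) and *Frmd8* (0.982). *Srl* and *Thada* each parted by condition, the contrast that chose *Srl*, so the r between them restates it and nothing is read from it. The genes most like *Ryr2* were *Ppm1f*, *Zfp846* and *Trmt6*, and 3252 genes had an r beyond 0.95 in either direction with *Ryr2*, against 24 with *Srl*. Those most like *Itpr3* were *Setd7*, *Coro2b* and *Fam57a*, and 2776 genes passed that r. *Atp2a2* was most like *Ints2*, *Med14* and *Ncbp1* (2662 genes), and *Atp2a3* was most like *Il17rc*, *Phf21b* and *Plxnb2* (261 genes). *Fkbp1b* was most like *Hdac3*, *Zfp526* and *Emp3* (333 genes). *Itpr1* was most like *Ikbkb* (r = 0.997), *Cdk10* (0.992) and *Fmn1* (0.977), and *Itpr2* was most like *Aass* (0.987), *Ccdc82* (0.978) and *Setdb2* (0.977), with 46 and 31 genes past the same r.

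Other genes of calcium handling, in the ER and in other membranes, were taken from lists written by function, with earlier results of these data known. Their counts of calls and p-values are therefore a description, and nothing is read from them. Of 68 listed genes, 64 were in the tables and 50 were tested. Between conditions, edgeR called 0 of the 50, and 0 with the replicate block, and DESeq2 also called 0, with a median log2 difference of -0.03 beside -0.00 over all tested genes. For replicate 3, 6 of the 50 rose and 13 fell, 38.0% beside 31.1% of all tested genes.

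Regulators of the pumps were few: 3 of 8 were tested, and none was called in either contrast in edgeR. Over all tested genes, 0% were called between conditions and 31.1% for replicate 3. The 3 were *Dnajc10*, an ER reductase that acts on SERCA2, at a log2 difference between conditions of -0.10 (SE 0.17), *Tmx1* at -0.08 (SE 0.21) and *Vmp1* at -0.07 (SE 0.09). For replicate 3 they were at -0.38 (SE 0.06), -0.51 (SE 0.06) and -0.08 (SE 0.06) in turn. *Dnajc10* and *Tmx1* there had adjusted p of 0.00011 and 3.72e-06 in edgeR and missed the fold threshold of 1.5. *Pln*, which encodes the SERCA2 inhibitor phospholamban, was at the floor, with 2 counts in control replicate 2 and 0 in the other 5 libraries.

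Of 28 regulators of the release channels, 24 were tested, with a median log2 difference of -0.01 between conditions. *Bok*, whose protein binds IP3 receptors, had the highest, 0.38 (SE 0.12), with 13.9, 13.1 and 11.8 CPM in control and 16.5, 17.8 and 17 CPM in activated replicates 1, 2 and 3. *Itpkb*, an IP3 kinase, was at 0.12 (SE 0.10), *Erp44*, a luminal partner of the type 1 IP3 receptor, at -0.26 (SE 0.12), and *Jph1*, a junctophilin that tethers ER to the plasma membrane, at -0.30 (SE 0.37). For replicate 3, 5 of the 24 rose and 2 fell in edgeR (adjusted p from 5.81e-10 to 0.000391), 29.2% beside 31.1% of all tested genes, with a median of 0.09 beside 0.00 over all tested genes. The IP3 kinase *Itpka* rose most, by a log2 difference of 2.94 (SE 0.14), from between 1.73 and 2.45 CPM in replicates 1 and 2 to 16.5 and 14.9 CPM in the replicate 3 libraries. *Tmem38b*, a potassium channel of the ER that accompanies calcium release, rose by 1.24 (SE 0.09), and the junctophilins *Jph1*, *Jph3* and *Jph4* rose by 0.80, 0.81 and 0.84. *Cisd2* had a log2 difference of -1.04 (SE 0.07). *Trdn*, *Jph2*, *Mrvi1* (now *Irag1*) and *Lrmp* (now *Irag2*) were at the floor in every library.

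Of 13 luminal calcium buffers, 9 were tested, and their median log2 difference between conditions was -0.15. Of the 9, 8 were below 0 and 1 above. The chaperones *Hspa5* (BiP) and *Hsp90b1* (GRP94) were at -0.24 (SE 0.43) and -0.23 (SE 0.37), *Rcn3* was at -0.04 and *Sdf4* at 0.01. With the replicate block *Hspa5* was at -0.27 (SE 0.06) and *Hsp90b1* at -0.23 (SE 0.06), and neither was called. For replicate 3, 4 of the 9 fell, *Calr* (-1.25), *Hspa5* (-1.13), *Hsp90b1* (-0.96) and *Canx* (-0.61), and 1 rose, *Rcn3* (0.63), with adjusted p from 5.35e-10 to 1.31e-06 in edgeR and a median of -0.48 over the list. That is 55.6% called, beside 31.1% of all tested genes. The replicate 3 libraries of *Atp2a2* and *Atp2a3* were also low, at -0.49 and -0.48. *Casq1*, *Casq2* and *Rcn1* were at the floor in every library, so the muscle calsequestrins were not detectable at this depth in libraries that held *Srl*.

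By position in GRCm38.p6 of RefSeq, *Itpr1* (108213083 to 108551116, plus strand) and *Itpr2* (146108299 to 146502258, minus strand) share chromosome 6. *Itpr3* (27057002 to 27122223, plus strand) shares chromosome 17 with *Thada* (84190056 to 84466246, minus strand). *Atp2a2* is on chromosome 5 (122453513 to 122502225, minus), *Atp2a3* on chromosome 11 (72961169 to 72993043, plus) and *Ryr2* on chromosome 13 (11553099 to 12106945, minus). *Fkbp1b* is on chromosome 12 (4833176 to 4841573, minus) and *Srl* on chromosome 16 (4476979 to 4541908, minus). The genes span from 8.40 kb (*Fkbp1b*) to 554 kb (*Ryr2*). By GENCODE, exons of *Atp2a2*, *Itpr1* and *Itpr3* share from 1 to 233 bases with genes outside the tables, such as the antisense *Itpr3os*, and how the strand was used in counting is not stated.

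Promoter sequences of RefSeq (GRCm38.p6) were matched by symbol for 5 of the 8 genes, *Atp2a3*, *Ryr2*, *Itpr2*, *Itpr3* and *Fkbp1b*. *Atp2a2*, *Itpr1* and *Srl* had no entry. The stretches before the annotated starts are shown for *Ryr2* and *Fkbp1b*, whose replicate 3 libraries were low and high in turn, and for *Atp2a3*, the pump whose share was higher in activated libraries. They are chr13:12106946-12107195 on the minus strand, chr12:4841592-4841823 on the minus strand and chr11:72960919-72961168 on the plus strand. Capitals mark GGGCGG (GC box) and TGACGTGG (core of a response element of the unfolded protein response) on either strand.
Ryr2: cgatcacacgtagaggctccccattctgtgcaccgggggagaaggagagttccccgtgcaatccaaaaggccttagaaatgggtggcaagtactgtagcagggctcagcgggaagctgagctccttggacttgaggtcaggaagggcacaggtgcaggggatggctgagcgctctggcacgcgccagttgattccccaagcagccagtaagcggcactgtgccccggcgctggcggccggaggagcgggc
Fkbp1b: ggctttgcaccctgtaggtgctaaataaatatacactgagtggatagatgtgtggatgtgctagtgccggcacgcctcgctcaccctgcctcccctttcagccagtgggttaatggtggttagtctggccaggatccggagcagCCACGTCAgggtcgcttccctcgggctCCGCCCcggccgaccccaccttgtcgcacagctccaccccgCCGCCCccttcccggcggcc
Atp2a3: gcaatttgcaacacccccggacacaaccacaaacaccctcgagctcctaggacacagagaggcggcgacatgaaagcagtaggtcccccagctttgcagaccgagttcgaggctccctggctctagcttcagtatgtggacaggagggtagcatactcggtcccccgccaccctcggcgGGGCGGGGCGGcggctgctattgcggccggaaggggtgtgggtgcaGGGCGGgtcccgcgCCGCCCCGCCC

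GGGCGG lay in 4 of these 5 promoters, in all but that of *Ryr2*, and in 32.7% of 32851 promoters of 250 bases. The *Itpr3* stretch, chr17:27057054-27057303, lies within the gene as placed above, so its matches are not upstream of the start at 27057002. The *Itpr2* stretch, chr6:146502224-146502473 on the minus strand, runs in part past the start of that gene at 146502258. Matches to it on either strand, overlaps included, numbered 5 in *Atp2a3*, 4 in *Itpr2*, 2 in *Fkbp1b* and 1 in *Itpr3*. TGACGTGG was held by *Fkbp1b* and by 0.563% of all promoters, CACGTG by *Itpr3* and by 6.02%, and CCAAT by *Itpr2* and by 33.8%. TGACGTCA (1.55% of all promoters), the ER stress response element (0.113%) and the ER stress response element II (0.0304%) matched in 0 of the 5. The GC content was 66.8% for *Atp2a3*, 63.2% for *Ryr2*, 74.4% for *Itpr2*, 72.0% for *Itpr3* and 64.8% for *Fkbp1b*, beside 53.2% over all promoters, and the 5 held from 14 to 25 CpG pairs, beside a median of 6. The motifs were chosen after the values of the genes were seen, and nothing about a factor is drawn from a match.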

How the data were processed

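RNA from MIN6 cells was sequenced in 3 control and 3 *Thada*-activated libraries. Each library's deposited table gives 16640 genes with an estimated count, not normalized. FPKM values, scaled by gene length and library size, were deposited as well. The processing notes of the submitters name Bowtie2, RSEM and DESeq2 with GRCm38, without versions. Their table also holds the log2 fold change, p-value and q-value of their own DESeq2 comparison, which were not used, and neither were 12 per-sample columns of that table, headed as TPM, for which FPKM served, and as counts, which were read from the samples' own tables. The members and lists were chosen with earlier results of these data known.

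Between 91.1% and 91.9% of the estimated counts had no fractional part as written (no tolerance), and the others were rounded. Counts were analysed in R 4.3.3 with edgeR 4.0.16: filterByExpr, TMM, robust quasi-likelihood test, Benjamini-Hochberg adjustment over all tested genes. Calls needed an adjusted p under 0.05 and a fold change over 1.5. The condition was the only term, and the replicate 3 contrast had an indicator of replicate 3 with the condition in the model. CPM used library totals, and fits and differences within numbers used TMM sizes. The SE was the log2 difference over the root of F. Shares and ratios between genes used FPKM. Intervals (exact for pairs of libraries, Wilson for shares of counts) and the floor of 3 counts cover counting error only, since reads without molecular identifiers are not independent molecules. Python 3.11.15, scipy 1.17.1 and matplotlib 3.10.9 were used for the rest.

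The genes to be named were the 8 members, the called genes of each list, the 2 largest and 2 smallest log2 differences between conditions in each list, genes at the floor in all libraries of a condition, and the 3 genes most like each member by Pearson r of log2(CPM + 0.5). Values of some genes that this rule covers are not printed.

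The labels do not say that replicate numbers pair the conditions. After removal of each condition's mean, correlations across 12516 genes between libraries of the same number were 0.746, 0.740 and 0.895, those crossing replicates 1 and 2 were 0.769 and 0.770, and those crossing with replicate 3 were from -0.829 to -0.817. The numbers were used as a pairing on this basis, although they set replicate 3 apart and do not tell replicates 1 and 2 apart. A chi-square test on counts found no duplicate libraries within a condition.

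The alternatives were DESeq2 1.42.0 size factors and Wald test, at least 10 counts in every library, no filter, library sizes without the 20 top genes, limma 3.58.1 on log2(FPKM + 1), the replicate block, and each library left out in turn. The alternatives added after seeing the data were the block with DESeq2, a replicate 3 term, replicates 1 and 2 alone, and the blocked fit without each pair in turn.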

Additional observations from a re-analysis of the deposited data

Results flagged for a closer look

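In 2 of the 8 genes the activated library was lower than its control in replicate numbers 1 and 2 and higher in replicate number 3. For *Ryr2* the log2 differences within numbers 1, 2 and 3 were -0.33, -0.06 and 0.19, so that number 3 exceeded the mean of numbers 1 and 2 by 0.39. For *Itpr2* they were -0.62, -0.53 and 0.21, and number 3 exceeded that mean by 0.78. The difference between the numbers was not tested for either gene, since number 3 holds a single library of each condition. Numbers 1 and 2 went against number 3, in either orientation, in 3167 of 12516 tested genes (25.3%).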

How the results depend on the processing

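Without a block edgeR called 0 genes between conditions. The count was 5 with DESeq2, 19 with the replicate block, 15 with the block and DESeq2, 42 with a replicate 3 term, 43, 18 and 70 with the block and pair 1, 2 or 3 left out, and 68 with replicates 1 and 2 only. It was 0 with each library left out in turn. *Thada* passed the thresholds under the same alternatives, with a log2 difference of 1.13 with DESeq2, 1.15 with the replicate block, 1.16 with the block and DESeq2, 1.15 with a replicate 3 term, 1.22, 1.26 and 0.99 in the blocked fit without pair 1, 2 or 3, and 0.99 with replicates 1 and 2 only. With each library left out it ranged from 0.93 to 1.26. The cause of these changes was not tested.

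Other genes of calcium handling, in the ER and in other membranes, called between conditions numbered 0 under all 19 alternatives, and the genes called for replicate 3 numbered from 2835 to 4082 under 11. Over 19 alternatives the log2 difference between conditions kept its sign for *Atp2a3* (0.14 to 0.43), *Itpr2* (-0.60 to -0.06), *Fkbp1b* (0.02 to 0.37) and *Srl* (0.54 to 0.64), and changed sign in 2 for *Atp2a2*, 4 for *Ryr2*, 3 for *Itpr1* and 2 for *Itpr3*. For replicate 3, *Ryr2* ranged from -1.54 to -0.87 and *Itpr2* from 0.07 to 0.85. Mean shares of the pump and IP3 receptor isoforms over the 6 libraries moved by less than 1 SD. Other shares were not run under these alternatives and differed between units. *Fkbp1b* was on average 17.8% of calstabin FPKM and 10.3% of calstabin counts. *Ryr2* was 23.3% of the FPKM of all IP3 and ryanodine receptors and 34.7% of their counts. Depth limits *Itpr2*, *Ryr1*, *Ryr3*, *Atp2a1* and other genes of low counts, 3 libraries per condition limit all values, and the labels do not state separate cultures.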

Other observations

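Other calcium proteins lie in leak pathways of the ER and in other membranes. Their lists were also written with earlier results of these data known, and nothing is read from their counts or p-values. Of 6 genes of ER calcium leak, 6 were tested and edgeR called 0 between conditions, where *Psen2* was at a log2 difference of 0.14 (SE 0.30), *Pkd2* at 0.05 (SE 0.59) and *Sec61a1* at -0.04 (SE 0.42). For replicate 3, 3 of the 6 fell in edgeR: *Pkd2* (polycystin 2) at -1.64 (adjusted p = 2.29e-09), *Sec61a1*, the translocon pore, at -1.11 (adjusted p = 1.95e-09) and *Psen2* at -0.75 (adjusted p = 1.33e-05). Over all tested genes, 15.4% were called lower in replicate 3 and 31.1% in either direction.

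Of 9 calcium pumps and exchangers of other membranes, 7 were tested and 0 were called between conditions in edgeR, with or without the block, and in DESeq2. The plasma membrane pump *Atp2b1* was at -0.19 (SE 0.43), the sodium-calcium exchangers *Slc8a3* and *Slc8a1* at -0.06 (SE 0.44) and 0.07 (SE 0.58), and *Atp2b4* at 0.02 (SE 0.12). For replicate 3, 4 of the 7 fell in edgeR, *Slc8a1* (-1.62), *Slc8a3* (-1.18), *Atp2b1* (-1.14) and *Atp2b2* (-0.69), with adjusted p from 9.75e-10 to 3.82e-07, beside the same 15.4% called lower over all tested genes. The median of the list was -0.69 for replicate 3, beside 0.00 over all tested genes. *Atp2b3* was at the floor in every library.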
